A study of Homo sapiens with 6 samples.

Results

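The genes described here are the matrix metalloproteinases (MMP), the ADAM and ADAMTS metalloproteases and the tissue inhibitors of metalloproteinases (TIMP) in HCCLM3, a human hepatocellular carcinoma line kept for its high metastatic capacity. They were chosen by name alone, as protein-coding genes called MMP, ADAM, ADAMTS or TIMP followed by a number, which gave 65 of the 58302 genes listed. The 65 comprised 22 MMP, 20 ADAM, 19 ADAMTS and 4 TIMP genes. RNA was sequenced from HCCLM3 cells transfected with Control ASO or with SCARNA13 ASO, 3 libraries each. ASO stands for antisense oligonucleotide, a synthetic nucleic acid made to bind 1 RNA and lower its level, and SCARNA13 is a small Cajal body-specific RNA. No other treatment and no time after transfection is given, and whether replicates are separate cultures is not stated. The p-values therefore describe the scatter among 6 libraries, which may be technical.

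MMPs are zinc-dependent endopeptidases that cut collagens and other matrix proteins. Most are secreted as latent precursors, and the membrane types stay anchored at the cell surface. ADAMs are membrane proteins, many of which release the outer parts of other surface proteins, and ADAMTS enzymes are their secreted relatives that work on proteoglycans and matrix assembly. TIMPs bind the active site of these enzymes and hold them in check, a balance studied in liver cancer because it bears on matrix remodelling and invasion.

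Promoter sequences set the transcribed and silent members of these families side by side. RefSeq windows on GRCh38.p14, from 250 bases before to 50 after the gene start, were matched by symbol to 38 of the 65 members. Of those 38, 12 belonged to genes averaging 1 FPKM or more (fragments counted per gene, scaled to gene length and library depth), 17 to genes with reads below that level and 9 to genes with no read. The 4 windows shown run 5′ to 3′ on the strand of the gene. MMP24 (chr20:35226440-35226739, plus strand) and ADAMTS10 (chr19:8610666-8610965, minus strand) are shown because their RNA was higher after SCARNA13 ASO, MMP14 (chr14:22836335-22836634, plus strand) because it is the most abundant MMP, and MMP7 (chr11:102530698-102530997, minus strand) because it is silent. Capitals mark every match, on either strand, to any of 3 motifs, and overlapping matches run together. The first is GGGCGG, the core of a GC box. A TATA box was searched as TATAAA. An element for the factor AP-1 was searched as TGANTCA, where N is any base.
MMP24: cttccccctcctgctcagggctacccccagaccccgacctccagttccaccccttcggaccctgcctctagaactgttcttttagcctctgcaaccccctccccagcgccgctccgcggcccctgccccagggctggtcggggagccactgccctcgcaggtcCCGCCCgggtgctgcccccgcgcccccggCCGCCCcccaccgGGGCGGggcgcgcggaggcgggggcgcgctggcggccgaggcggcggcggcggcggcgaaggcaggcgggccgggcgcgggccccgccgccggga
ADAMTS10: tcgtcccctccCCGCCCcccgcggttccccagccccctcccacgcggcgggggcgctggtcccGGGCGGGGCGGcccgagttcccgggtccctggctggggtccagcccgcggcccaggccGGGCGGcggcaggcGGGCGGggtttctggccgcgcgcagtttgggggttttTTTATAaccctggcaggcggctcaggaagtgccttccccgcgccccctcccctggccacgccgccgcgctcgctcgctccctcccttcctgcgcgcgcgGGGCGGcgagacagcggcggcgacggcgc
MMP14: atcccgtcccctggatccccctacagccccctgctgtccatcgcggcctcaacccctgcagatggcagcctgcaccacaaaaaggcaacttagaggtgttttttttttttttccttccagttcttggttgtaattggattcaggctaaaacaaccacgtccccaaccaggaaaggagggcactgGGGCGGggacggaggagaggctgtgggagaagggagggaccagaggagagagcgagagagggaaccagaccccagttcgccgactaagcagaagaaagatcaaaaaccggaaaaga
MMP7: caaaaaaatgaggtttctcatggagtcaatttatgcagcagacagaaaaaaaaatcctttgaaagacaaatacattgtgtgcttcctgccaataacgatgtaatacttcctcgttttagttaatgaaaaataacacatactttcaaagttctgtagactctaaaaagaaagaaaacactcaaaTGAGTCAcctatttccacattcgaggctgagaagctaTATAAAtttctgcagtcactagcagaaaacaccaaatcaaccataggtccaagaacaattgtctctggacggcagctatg

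The MMP24 window held 3 GGGCGG matches and neither of the other motifs, and the ADAMTS10 window held 6 GGGCGG matches and 1 TATAAA match on the opposite strand. MMP14 held 1 GGGCGG match, 66 bases before the start. MMP7 held no GGGCGG match, a TGANTCA match beginning 67 bases before the start and a TATAAA match beginning 30 bases before it. Windows of the expressed members had a median GC content of 74.3% (range 52% to 80%), those of members with reads below 1 FPKM 67% (36.3% to 80.3%), and those of silent members 40.7% (33.3% to 70.7%), against 58.7% over all 35116 promoters. A GGGCGG match was present in 10 of 12 expressed, 13 of 17 low and 2 of 9 silent members, against 45.0% of all promoters. TATAAA was present in 1 of 12, 3 of 17 and 4 of 9, against 11.5% of all promoters, and TGANTCA in 0 of 12, 2 of 17 and 2 of 9, against 7.71%. The 5 matched windows of the MMP cluster on chromosome 11 had a median GC content of 36.3%, and 4 of them held TATAAA, 3 TGANTCA and 0 GGGCGG. No window was matched for the expressed TIMP2, ADAMTS1, MMP17, ADAM9, ADAM11, MMP9 and MMP19. MMP1, MMP3, MMP12 and MMP13 of the cluster had none either, so the shares cover the matched members only. The motif matches describe the letters in the windows and are not binding sites.

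**Figure D1:**
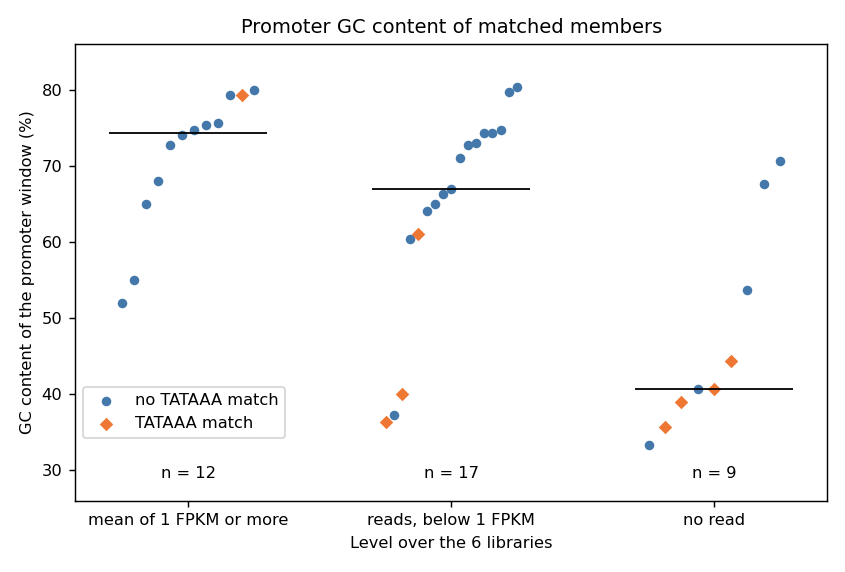
GC content (%) of the 300-base promoter window for the 38 matched members, split by level over the 6 libraries, with a diamond where the window holds TATAAA and a bar at the median. Silent members centre on 40.7% and expressed members on 74.3%, and 4 of the 9 silent windows hold TATAAA.

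The libraries held 20457474 to 25173559 reads in genes. In both groups replicate 3 stood apart from replicates 1 and 2 in the way its values followed GC content. It also differed in scale and in genes detected. The library size implied by the FPKM values was 13089653 for control replicate 3 and 15550655 for treated replicate 3, against 26628485 to 30416028 for the other libraries. Genes with reads numbered 19362 and 19860 in these replicate 3 libraries, against 22572 to 22794 in the others. SCARNA13 itself measured 0.717, 0.683 and 0.556 FPKM in controls and 0.268, 0.383 and 0.468 FPKM after SCARNA13 ASO, from only 13 against 7 reads in all. Of the liver and epithelial markers checked, KRT8, KRT18 and KRT19 had means of 1081, 1404 and 546 FPKM. The epithelial marker EPCAM averaged only 0.0555 FPKM, from 22 reads. The hepatocyte genes ALB, APOA2, APOB and FGB had no read, and APOA1 and TTR had 3 and 2 reads. SERPINA1 averaged 2.06 FPKM, and AFP had 53 reads, averaging 0.0582 FPKM in controls against 0.168 FPKM in treated libraries. SOX9, a factor of bile duct and progenitor cells, was the only gene of this list that passed. It measured 48.0, 49.1 and 49.0 FPKM in controls and 33.5, 35.3 and 35.7 FPKM after SCARNA13 ASO, and fell by 0.45 on the log2 scale in the fit with GC correction and replicate block (limma adjusted p = 0.0360). Endothelial markers summed to 0.0433 to 0.1055 FPKM per library. Immune markers summed to 2.89 to 6.89 FPKM in controls and 2.26 to 3.29 FPKM after SCARNA13 ASO, led by CD14 at a mean of 3.27 FPKM, with CD3E, MS4A1 and LYZ at 0. Fibroblast markers summed to 27.1 to 67.6 FPKM in controls and 25.4 to 41.1 FPKM after SCARNA13 ASO, led by THY1. THY1 averaged 34.3 and 23.2 FPKM in the respective groups and was lower in 3 of 3 pairs. COL3A1 averaged 5.22 and 6.21 FPKM and PDGFRB 0.686 and 1.04 FPKM, both higher in 3 of 3 pairs. COL1A1 averaged 0.440 and 0.319 FPKM, with every treated library just below every control. COL1A2, DCN and PDGFRA were each below 0.005 FPKM on average. The part of these markers in the results was not tested. In bulk RNA, fewer cells of a type and less RNA per cell cannot be told apart.

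Of the 65 members, 19 averaged 1 FPKM or more over the 6 libraries and are called expressed, 31 had reads but stayed below that mean, and 15 had no read in any library. The expressed set comprised 6 of 22 MMP, 7 of 20 ADAM, 3 of 19 ADAMTS and 3 of 4 TIMP genes. TIMP RNA predominated, with 72.9%, 72.1% and 75.1% of the summed FPKM of all members in controls and 71.4%, 69.6% and 69.5% after SCARNA13 ASO. TIMP1, a secreted inhibitor of most MMPs, was the most abundant member at a mean of 335 FPKM. TIMP3, which is held in the matrix and also inhibits ADAM17, followed at 127 FPKM, and TIMP2, which inhibits MMPs and also helps MMP14 to activate pro-MMP2 on the cell surface, stood at 48.0 FPKM. TIMP4 had 1 read in all.

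The protease RNAs of this line were mainly those of membrane-bound enzymes. MMP14, a transmembrane collagenase, had a mean of 63.0 FPKM. The membrane-type MMP15, MMP17 and MMP24 had means of 13.9, 12.02 and 11.8 FPKM, and MMP17 is the one of these with a lipid anchor. Secreted MMPs were scarce: MMP9, a gelatinase, averaged 1.81 FPKM and MMP19 1.02 FPKM, and MMP2, the other gelatinase, 0.138 FPKM. Among ADAM genes, ADAM15, whose product can bind integrins, led at 34.2 FPKM, followed by ADAM19 at 13.9 FPKM and ADAM9 at 8.67 FPKM. ADAM11, which lacks protease activity, had 5.72 FPKM. The shedding enzymes ADAM17 and ADAM10 were low, at 2.19 and 1.015 FPKM, and ADAM8 had 1.43 FPKM. The order of ADAM17 and ADAM10 depends on the gene length used. ADAM10 had 2555 reads over 16168 bases and ADAM17 had 1826 reads over 5491 bases. The ADAMTS family was represented by ADAMTS1, a proteoglycan-cleaving enzyme, at 19.4 FPKM, and by the related ADAMTS10 and ADAMTS6, which act in microfibril assembly, at 2.95 and 1.03 FPKM.

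**Figure D2:**
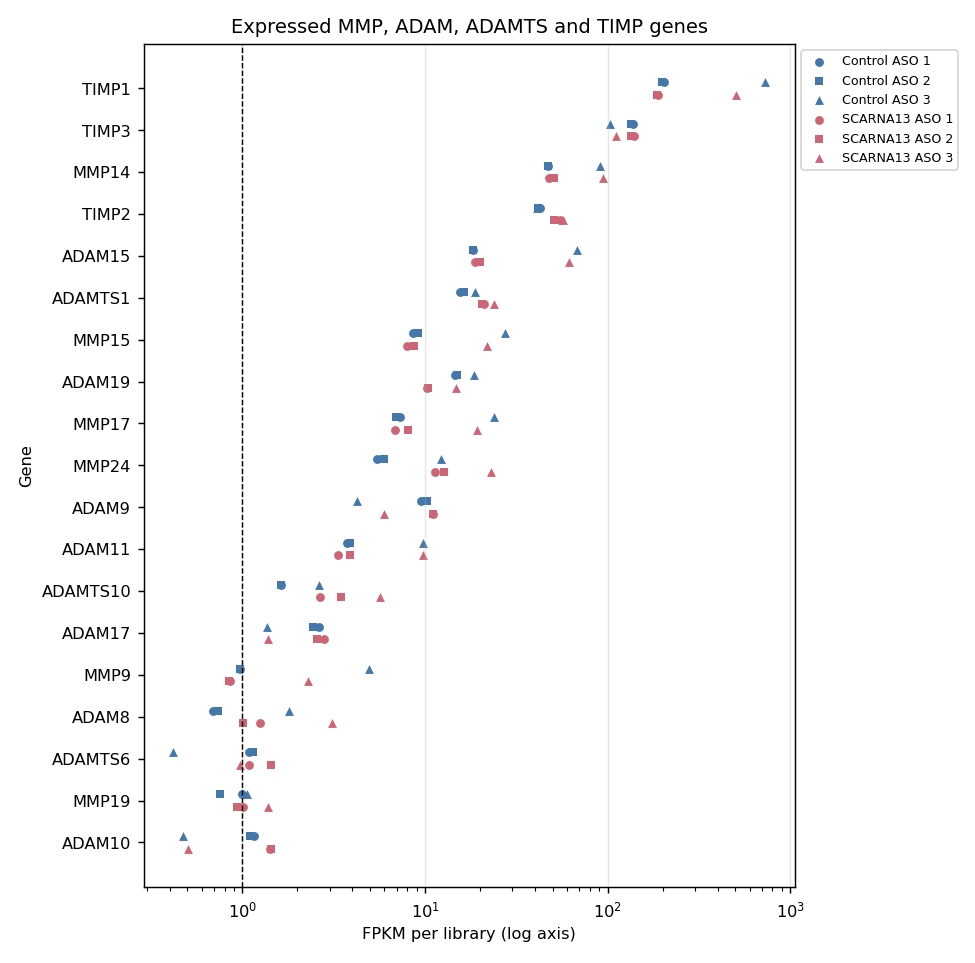
FPKM in each of the 6 libraries (log axis) for the 19 expressed members, in order of mean level, with control libraries in blue, SCARNA13 ASO libraries in red, a marker shape for each replicate number and a dashed line at 1 FPKM. TIMP1 spans 187 to 730 FPKM, and its replicate 3 libraries lie to the right of the others in both groups.

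Just above the boundary at 1 FPKM were ADAM10 (1.015 FPKM), MMP19 (1.02 FPKM) and ADAMTS6 (1.03 FPKM). The next below it, after a gap, were ADAMTS7 (0.744 FPKM), ADAMTS13 (0.570 FPKM) and MMP11 (0.461 FPKM). With a requirement of 1 FPKM in every library, 14 members qualified, without MMP9, ADAM8, ADAMTS6, MMP19 and ADAM10. MMP9 stayed below 1 FPKM in replicates 1 and 2 of both groups and reached its mean only through replicate 3 (4.94 FPKM in the control, 2.29 FPKM after SCARNA13 ASO). ADAM8 was below 1 FPKM in control replicates 1 and 2 (0.688 and 0.739 FPKM).

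The 15 members with no read were MMP7, MMP8, MMP12, MMP13, MMP20, MMP26 and MMP27, ADAM2, ADAM7, ADAM18, ADAM28, ADAM29 and ADAM30, and ADAMTS19 and ADAMTS20. A limit of 3 reads over the 6 libraries allows them at most 0.00227 to 0.0162 FPKM, counting error only. They included the collagenases MMP8 and MMP13 and the matrilysins MMP7 and MMP26. Of the 9 members in the MMP cluster of chromosome 11 (102520508 to 102955734 on GRCh38), 6 were silent. The remaining MMP1, MMP3 and MMP10 had 8, 11 and 1 reads, or 20 reads for the whole cluster. Among the 31 low members, 13 had fewer than 10 reads and 9 had 100 reads or more.

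Replicate 3 differed from its companions by amounts that tracked the GC content of each member. In controls, replicate 3 over the mean of replicates 1 and 2 was 5.10-fold for MMP9, 3.72-fold for ADAM15, 3.63-fold for TIMP1 and 3.34-fold for MMP17, all with a transcript GC content of 57.9% to 68.7%. It was 0.375-fold for ADAMTS6, with a GC content of 42.5%, and 0.417-fold for ADAM10, 0.428-fold for ADAM9 and 0.539-fold for ADAM17, whose GC content lay between 38.3% and 39.4%. Over the 19 expressed members, Pearson's r between GC content and the log2 of that ratio was 0.92 in controls (Spearman's rho 0.85) and 0.95 after SCARNA13 ASO (rho 0.85). These are descriptions across genes that share libraries, and the 2 relations use the same GC values. In 13 members replicate 3 was higher in both groups and in 5 lower in both.

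**Figure D3:**
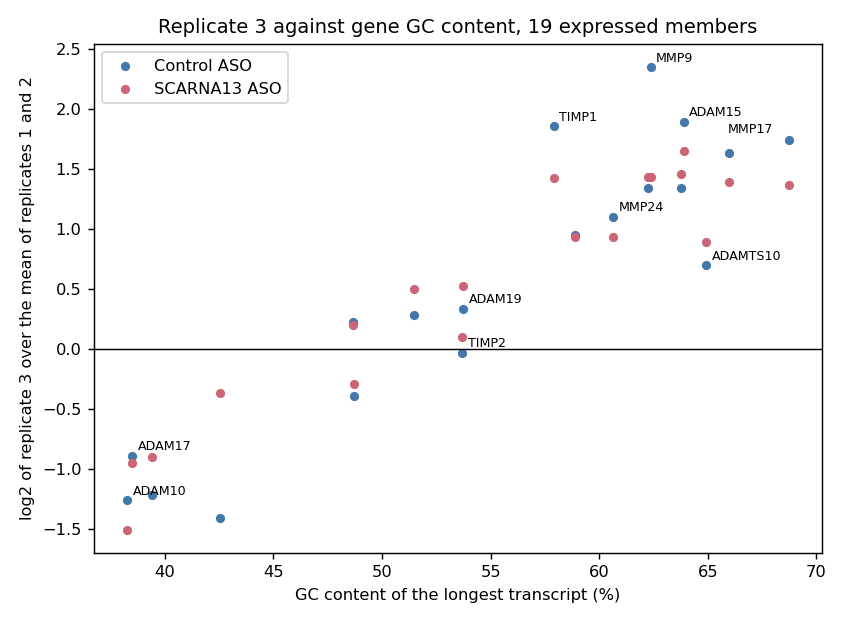
Log2 of the replicate 3 value over the mean of replicates 1 and 2 (vertical axis) against the GC content (%) of the longest transcript, for the 19 expressed members in each group. Points tend to rise with GC content. In controls the lowest is ADAMTS6 at 0.375-fold and the highest MMP9 at 5.10-fold, with the GC-poor ADAM10 at 0.417-fold. ADAMTS10, with a GC content of 64.9%, stands at 1.62-fold.

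For that reason 2 fits were read side by side. In the fit with group as the only term (limma-trend on log2(FPKM + 0.5), Benjamini-Hochberg adjusted p under 0.05), 0 of the 19 expressed members passed, and 0 of 10120 genes (0%). At an unadjusted p under 0.05 there was 1 member, ADAMTS10, against 1.71% of all genes. With a correction of each library for GC content and the replicate number as a block, 4 of 19 members rose, against 3.06% of 10104 genes, and 0 fell, against 2.15%. Of the rest, 15 did not pass. The members that rose were MMP24, ADAMTS10, TIMP2 and ADAMTS1, 3 proteases and 1 inhibitor. The median log2 fold change of the 19 was 0.13 in that fit against 0.00023 over all genes, and 0.060 against -0.025 in the fit with group only. Without replicate 1 of both groups MMP24 alone passed (15 genes in all), without replicate 2 no gene passed, and without replicate 3 those 4 passed together with ADAM19 (746 genes).

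**Figure D4:**
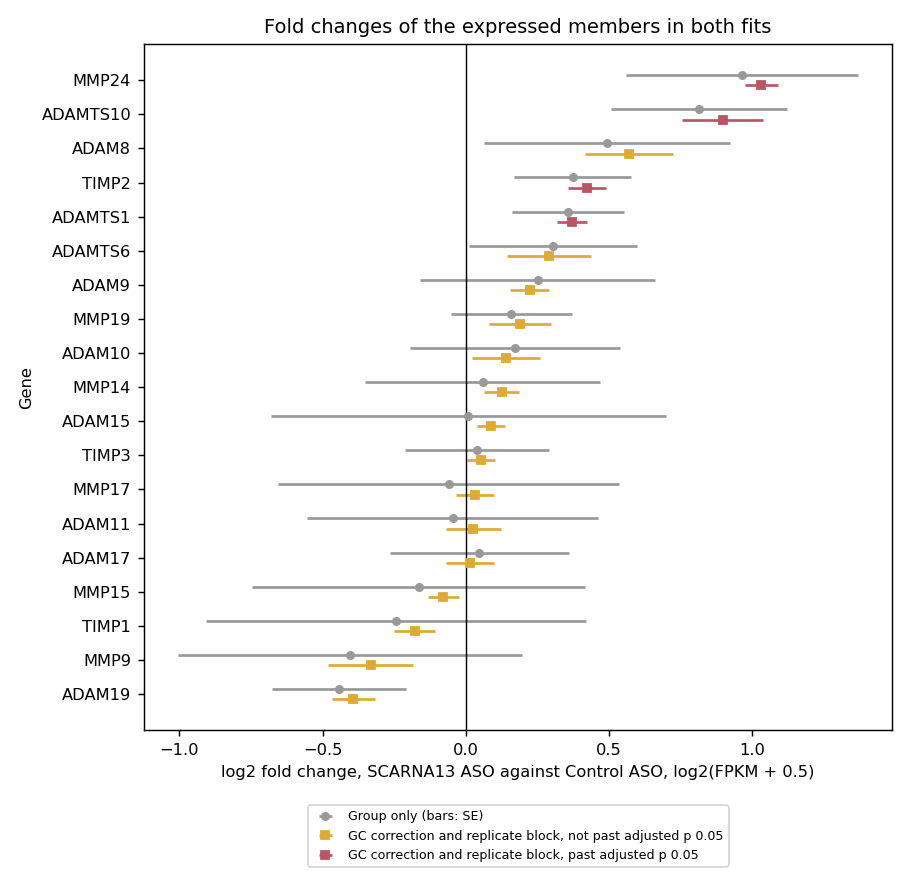
Log2 fold change (horizontal axis, SCARNA13 ASO against Control ASO on the log2(FPKM + 0.5) scale) with its SE for the 19 expressed members, from the fit with group only (circles) and from the fit with GC correction and replicate block (squares, red where the adjusted p is under 0.05 and yellow otherwise). MMP24 lies at 0.97 and 1.03, and the bars of the fit with group only are wider for every member.

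MMP24 showed the greatest difference of the expressed members. This membrane-type MMP, best known from the nervous system (ENSG00000125966, chromosome 20, 35226654 to 35277000, plus strand, GRCh38), measured 5.49, 5.93 and 12.3 FPKM in controls and 11.4, 12.6 and 23.0 FPKM after SCARNA13 ASO. Every treated library was above the control library of its own number, by 2.07-fold, 2.13-fold and 1.87-fold, but the groups overlapped because the control of replicate 3 lay above the treated library of replicate 1. Group means were 7.90 FPKM ± 3.80 and 15.7 FPKM ± 6.37 (SD, n = 3). Its log2 fold change was 1.03 ± 0.057 (SE; limma adjusted p = 0.0241) with GC correction and block, and 0.97 ± 0.41 (adjusted p = 0.9997) with group only. The scaled read ratio was 2.08 with an exact 95% interval of 1.98 to 2.19, counting error only. MMP24-AS1, on the opposite strand, shares 799 of the 4414 exonic bases of MMP24, and the library kit does not mark strand. MMP24-AS1 measured 10.2, 10.1 and 29.7 FPKM in controls and 10.9, 10.7 and 21.1 FPKM after SCARNA13 ASO. Its log2 difference was -0.13 ± 0.14 in the corrected fit (SE; limma adjusted p = 0.574). The GC correction suits this gene poorly, since its GC content is 35.5% but control replicate 3 stood at 2.94-fold of the other controls. In a fit of replicates 1 and 2 only, the log2 difference was 0.085. Whether its reads add to those of MMP24 was not tested.

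The other membrane-type MMPs above 1 FPKM, MMP14, MMP15 and MMP17, did not pass. MMP14 measured 47.0, 47.1 and 91.0 FPKM in controls and 47.7, 50.9 and 94.2 FPKM after SCARNA13 ASO. The treated library was slightly the higher in each pair, and the log2 difference was 0.13 ± 0.061 in the corrected fit (SE; limma adjusted p = 0.229). MMP15 measured 8.55, 9.15 and 27.5 FPKM against 7.985, 8.65 and 21.9 FPKM, lower in 3 of 3 pairs, with a log2 difference of -0.078 ± 0.055 (limma adjusted p = 0.376). MMP17 stood at 7.30, 6.91 and 23.8 FPKM against 6.88, 8.03 and 19.2 FPKM, without a common direction. Whether the response of MMP24 differs from that of these genes was not tested.

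The secreted MMPs did not pass. MMP9 measured 0.971, 0.965 and 4.94 FPKM in controls and 0.851, 0.841 and 2.29 FPKM after SCARNA13 ASO, from 473 reads. It was lower in 3 of 3 pairs, with ratios of 0.877, 0.872 and 0.463, and did not pass (log2 -0.33 ± 0.15, limma adjusted p = 0.199 in the corrected fit). MMP19 averaged 0.937 FPKM ± 0.161 and 1.11 FPKM ± 0.235 (SD, n = 3). Exons of TMEM198B on the opposite strand, at a mean of 1.60 FPKM against 1.02 FPKM for MMP19, cover 814 of the 4672 exonic bases of MMP19. Those of SLC12A5-AS1, at a mean of 0.245 FPKM, cover 430 of the 2336 of MMP9. Whether reads of these genes add to those of MMP19 and MMP9 was not tested.

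Of the expressed ADAMTS genes, ADAMTS10 and ADAMTS1 rose in the corrected fit. ADAMTS10 (chromosome 19, 8580242 to 8610735, minus strand) measured 1.62, 1.63 and 2.64 FPKM in controls and 2.67, 3.45 and 5.67 FPKM after SCARNA13 ASO. Every treated library was above every control, though only just, since the lowest treated value was 2.67 and the highest control 2.64. Its log2 fold change was 0.90 ± 0.14 (SE; limma adjusted p = 0.0424) in the corrected fit and 0.81 ± 0.31 with group only, with p = 0.1 by an exact two-sided permutation test, the lowest that 3 against 3 libraries can reach. ADAMTS1 (chromosome 21, 26835747 to 26845409, minus strand) measured 15.6, 16.4 and 18.7 FPKM against 21.0, 20.6 and 23.8 FPKM. The groups were apart, with pair ratios of 1.34, 1.25 and 1.27, and its log2 fold change was 0.37 ± 0.052 (SE; limma adjusted p = 0.0381). ADAMTS6 measured 1.09, 1.15 and 0.419 FPKM against 1.09, 1.43 and 0.976 FPKM, a difference carried by replicate 3, and did not pass (limma adjusted p = 0.240). It passed the 1 FPKM filter only through its treated libraries, so its direction is partly set by that filter.

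Among the inhibitors, TIMP2 rose in the corrected fit while TIMP1 and TIMP3 did not pass. TIMP2 (chromosome 17, 78852977 to 78925387, minus strand) measured 42.5, 41.6 and 41.1 FPKM in controls and 54.9, 51.2 and 56.8 FPKM after SCARNA13 ASO. It was the member least moved by replicate 3, and the groups did not overlap. Means were 41.7 FPKM ± 0.670 and 54.3 FPKM ± 2.84 (SD, n = 3). The log2 fold change was 0.42 ± 0.066 (SE; limma adjusted p = 0.0418) in the corrected fit and 0.37 ± 0.20 (limma adjusted p = 0.9997) with group only. TIMP2 did not pass with the block alone (limma adjusted p = 0.0848) or with GC correction alone (limma adjusted p = 0.577). The exact permutation test gave p = 0.1. TIMP1 measured 204, 199 and 730 FPKM in controls and 188, 187 and 505 FPKM after SCARNA13 ASO. It was lower in 3 of 3 pairs, with ratios of 0.925, 0.942 and 0.692, and did not pass (log2 -0.18 ± 0.072, limma adjusted p = 0.168). TIMP3 measured 137, 135 and 103 FPKM against 140, 133 and 111 FPKM, with a log2 difference of 0.054 ± 0.049 (limma adjusted p = 0.485).

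ADAM genes gave no member that passed with all 3 pairs. ADAM19, a membrane metalloprotease that can release neuregulins, had the lowest corrected fold change of the 19. It measured 14.53, 14.96 and 18.6 FPKM in controls and 10.2, 10.3 and 14.78 FPKM after SCARNA13 ASO, lower in 3 of 3 pairs with ratios of 0.702, 0.690 and 0.794. The groups overlapped because the treated library of replicate 3 lay between the controls of replicates 1 and 2, and the log2 difference was -0.39 ± 0.076 (SE; limma adjusted p = 0.0532). ADAM8, best known from leukocytes, measured 0.688, 0.739 and 1.81 FPKM against 1.25, 1.005 and 3.09 FPKM, higher in 3 of 3 pairs, with a log2 difference of 0.57 ± 0.15 (limma adjusted p = 0.0854). ADAM15 measured 18.2, 18.4 and 68.1 FPKM against 18.9, 20.1 and 61.4 FPKM, and its pairs pointed both ways. ADAM9 measured 9.56, 10.2 and 4.23 FPKM against 11.1, 11.01 and 5.94 FPKM, higher in each pair without passing (log2 0.22 ± 0.069, limma adjusted p = 0.106). ADAM17 averaged 2.14 FPKM ± 0.681 and 2.24 FPKM ± 0.752, ADAM10 0.912 FPKM ± 0.382 and 1.12 FPKM ± 0.534, and ADAM11 5.78 FPKM ± 3.40 and 5.67 FPKM ± 3.56 (SD, n = 3). Exons of IAH1 on the opposite strand cover 1323 of the 10750 exonic bases of ADAM17 in GENCODE 29, a longer gene model than the 5491 bases behind its deposited FPKM. IAH1 averaged 3.18 FPKM, and whether its reads add to those of ADAM17 was not tested.

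Taken by direction alone, 11 of the 19 expressed members were higher in 3 of 3 pairs, against 23.9% of all genes tested, and 4 were lower in 3 of 3, against 29.6%. Of the 11, ADAM10, MMP19 and ADAMTS6 reached 1 FPKM only through the treated libraries, with control means of 0.912, 0.937 and 0.885 FPKM, so the filter itself favours a higher treated value for them, and the count is a description only. The groups were apart with the treated libraries above for 3 members (TIMP2, ADAMTS1 and ADAMTS10), against 4.0% of all genes, and with the treated libraries below for 0, against 4.44%.

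Replicates 1 and 2 were also read without replicate 3. In a fit of those 4 libraries on deposited values with no block, 4 of 19 members rose, against 4.52% of genes, and 1 fell, against 4.59%. Those that rose were MMP24 (log2 1.009), ADAMTS10 (0.73), ADAMTS1 (0.37) and TIMP2 (0.33), and ADAM19 fell by 0.50 on the log2 scale, with limma adjusted p-values between 0.0127 and 0.0341. This choice of libraries was made after the values were seen. In replicate 3, which that fit did not use, each of the 5 moved the same way, with ratios of 1.87 for MMP24, 2.15 for ADAMTS10, 1.27 for ADAMTS1, 1.38 for TIMP2 and 0.794 for ADAM19. This is no independent check, since the 4 that rose had already passed in the corrected fit, which used replicate 3. The 1 FPKM filter also used replicate 3. How many of all genes called in replicates 1 and 2 kept their direction in replicate 3 was not counted.

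Members below 1 FPKM were outside the main test, and 5 of these 31 had every treated library above every control, against 2.86% of the 18642 genes with reads at that level, while 0 had every treated library below, against 3.05%. ADAMTS7, which cleaves a cartilage matrix protein, measured 0.370, 0.413 and 0.672 FPKM in controls and 0.677, 0.744 and 1.59 FPKM after SCARNA13 ASO, from 240 against 497 reads. The scaled read ratio was 2.04 (exact 95% interval 1.75 to 2.39, counting error only). ADAMTS7 has annotated pseudogene copies, so its reads may be shared with them. MMP25, a membrane-type MMP with a lipid anchor, measured 0.175, 0.164 and 0.333 FPKM against 0.339, 0.527 and 0.639 FPKM, with a read ratio of 2.39 (1.75 to 3.31). MMP25-AS1, on the opposite strand, overlaps 1454 of its 4126 exonic bases. MMP25-AS1 averaged 0.594 FPKM, above the 0.363 FPKM of MMP25, and the library kit does not mark strand. Whether its reads make up part of the MMP25 difference was not tested. ADAM23, a member without protease activity, measured 0.328, 0.298 and 0.167 FPKM against 0.522, 0.415 and 0.461 FPKM, with a read ratio of 1.63 (1.30 to 2.04). The other two, ADAMTS14 and ADAMTS18, rested on 27 and 10 reads. With no filter on low values, limma gave adjusted p = 0.9998 for ADAMTS7, MMP25 and ADAM23.

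ADAMTS13, the protease of von Willebrand factor and a known liver product, measured 0.300, 0.336 and 0.495 FPKM against 0.458, 0.492 and 1.34 FPKM, higher in 3 of 3 pairs with overlapping groups. MMP16, a membrane-type MMP, measured 0.562, 0.614 and 0.183 FPKM against 0.496, 0.405 and 0.281 FPKM, lower in replicates 1 and 2 and higher in replicate 3. MMP11, an MMP activated inside the cell, stood at 0.4495 FPKM ± 0.149 and 0.473 FPKM ± 0.0979 (SD, n = 3). CHCHD10, on the opposite strand at a mean of 93.3 FPKM, shares 218 of the 5176 exonic bases of MMP11, so reads of the 2 genes cannot be told apart there. The 82 reads of MMP2 could not resolve a difference (read ratio 0.771, exact 95% interval 0.484 to 1.22).

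**Figure D5:**
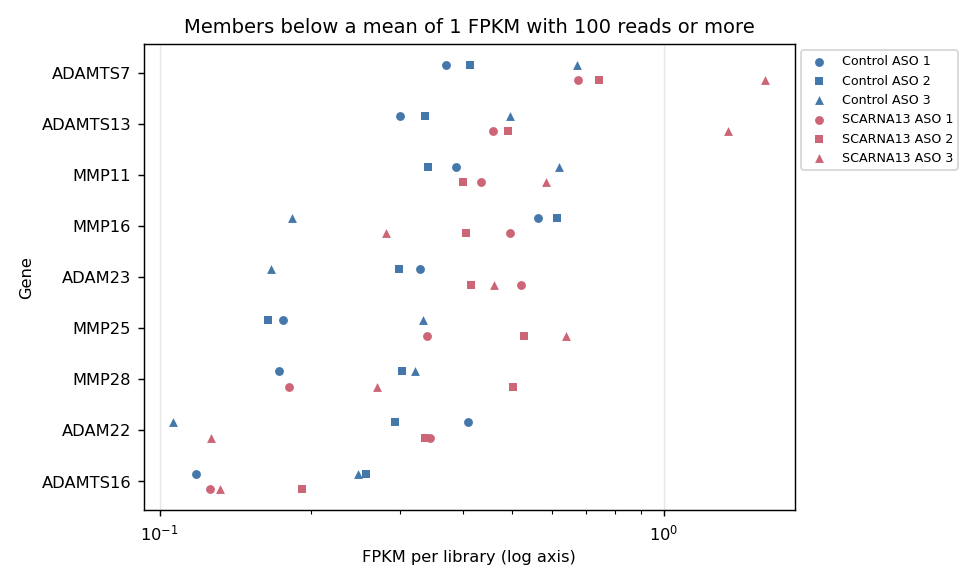
FPKM in each library (log axis) for the 9 members with 100 reads or more and a mean below 1 FPKM, with control libraries in blue, SCARNA13 ASO libraries in red and a marker shape for each replicate number. MMP28, ADAM22 and ADAMTS16 overlap between groups. The red points of ADAMTS7, ADAM23 and MMP25 lie to the right of all blue points of the same gene.

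Other genes around these proteases were read from 4 lists, and in the fit with group only 0 members of any list passed. Of 14 tested activators and inhibitors of metalloproteases, 2 rose (3.06% of all genes), 1 fell (2.15% of all genes) and 11 did not pass in the corrected fit, with a median log2 fold change of -0.018. SPOCK1, a matrix proteoglycan that can restrain membrane-type MMPs, measured 4.21, 4.05 and 2.22 FPKM in controls and 6.29, 5.25 and 4.24 FPKM after SCARNA13 ASO (log2 0.55 ± 0.092, limma adjusted p = 0.0457). LRP1, the receptor that takes up several MMPs and TIMPs, rose by 0.38 ± 0.055 (limma adjusted p = 0.0384), and FRMD8, which stabilises the ADAM17 sheddase complex, fell by 0.40 on the log2 scale (limma adjusted p = 0.0365). The proprotein convertase PCSK7 stood at 0.31 and the ADAM10 partners TSPAN15 and TSPAN14 at -0.27 and -0.27 without passing (limma adjusted p = 0.0931, 0.0716 and 0.109). The other TSPAN genes of the list did not pass either and had no common direction. TSPAN17 stood at 0.22 (limma adjusted p = 0.0621), TSPAN33 at 0.090, TSPAN5 at -0.052 and TSPAN10 at -0.067.

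Of 22 tested proteins shed by ADAM10 or ADAM17, 3 rose (3.06% of all genes), 1 fell (2.15% of all genes) and 18 did not pass, with a median log2 fold change of 0.088. L1CAM, an adhesion molecule, measured 91.6, 95.03 and 154 FPKM against 130, 146 and 230 FPKM (log2 0.63 ± 0.071, limma adjusted p = 0.0365). SDC1, a cell-surface proteoglycan, rose by 0.48 ± 0.073 and the adhesion molecule ALCAM by 0.31 ± 0.056, and MICA, a ligand of natural killer cell receptors, fell by 0.32 on the log2 scale, with limma adjusted p-values between 0.0365 and 0.0487 over the 4 genes. CD44 measured 95.8, 89.8 and 91.7 FPKM against 79.0, 72.7 and 69.4 FPKM, below every control, and missed the threshold (limma adjusted p = 0.0505). MICB, a relative of MICA, and the chemokine CXCL16 stood at -0.62 and -0.51 without passing. Of 5 tested metzincin relatives and ADAMTS-like genes 0 passed, with a median of 0.23 and ADAMTSL5 at 0.43 ± 0.084 (limma adjusted p = 0.0542). ADAMTSL4, PAPPA and the procollagen-processing enhancer PCOLCE stood at 0.28, 0.21 and -0.32. Of 12 tested transcription factors that act on MMP promoters 0 passed, with a median of -0.090, JUNB at -0.70 ± 0.17 and JUND at 0.48 ± 0.089 (limma adjusted p = 0.0716 and 0.0515). ETV5 and RUNX2 stood at -0.24 and -0.17.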

How the data were processed

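The authors deposited 1 FPKM value per gene and library. Per the submitters' processing notes, TopHat2 2.0.9, Bowtie2 2.0.6 and hg19 were used, in unstated roles. How reads were counted and scaled is not given in the sources used here. Positions in the files are those of GRCh38: 97.6% of 58039 gene identifiers had the same start and end in GENCODE 29. TruSeq RNA libraries were made from total RNA, per the labels' protocols.

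FPKM times gene length was a whole multiple of 1 step per library for 100% of values (tolerance 0.01 reads), so reads were recovered. The step implies a library size equal to a median-of-ratios size factor, an inference from the values.

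Genes averaging 1 FPKM or more were tested by limma 3.58.1 (R 4.3.3, limma-trend) on log2(FPKM + 0.5), two-sided, Benjamini-Hochberg adjusted over all genes. That scale understates the change of low genes. Deviations from the group means correlated between same-numbered libraries (0.84, 0.78 and 0.91), and the numbers were taken as pairs. Crossed pairs of replicates 1 and 2 gave 0.81 and 0.81. The correlation therefore sets replicate 3 apart but cannot decide how replicates 1 and 2 pair. For those the pairing, and the block built on it, rest on the numbers alone. The GC correction subtracts a loess trend (span 0.5) of each library on the GC content of the longest GENCODE 29 transcript. Fits were also run on simulated data in which both groups of a replicate number shared the same profile. Those runs cannot show how the fits behave where replicate 3 shifts differ between groups, as for TIMP1 (3.63-fold in controls, 2.69-fold in treated libraries).

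Every expressed member is named, and values in all libraries are given for members that passed, the 2 most abundant of each family, the 6 with the smallest p and those whose groups were apart. List genes named are the 4 of each list with the smallest p in the fit with group only and those that passed in either fit, with values from the corrected fit. The remaining TSPAN genes were added beside TSPAN14 and TSPAN15 after their values were seen. Members below 1 FPKM, MMP24-AS1 and marker genes were singled out after their values were seen. The members and lists were chosen with earlier results of these data known. Sequences are from RefSeq, GRCh38.p14.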

Additional observations from a re-analysis of the deposited data

How the results depend on the processing

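Of 399 values of the 19 expressed members under other settings, 346 kept direction and side of the threshold, 15 came to pass and 38 changed sign. TIMP2, ADAMTS1, ADAMTS10, MMP24, ADAM19, ADAM8, ADAMTS6 and MMP19 kept their sign under all settings run. Under the replicate block alone 0 members and 0 genes passed (2598 genes at an unadjusted p under 0.05, smallest adjusted p 0.0506), and likewise under GC correction with no block (added after the data were seen), other pseudocounts, filters or scalings, no intensity trend, limma-voom on recovered reads (162 genes at an unadjusted p under 0.05) and each omission of 1 library. GC correction with replicate block called 526 genes and 4 members. Dropping a replicate number from both groups gave 15 and 1 without replicate 1, no call without replicate 2, and 746 and 5 without replicate 3. The replicates 1 and 2 only with no block gave 922 and 5 (also added later). MMP17 turned to 0.032 with GC correction (with or without block), 0.039 with total-read scaling, 0.061 in replicates 1 and 2 only, and 0.077 and 0.051 in the corrected fit without replicate 1 and without replicate 3. ADAM11 turned to 0.027 with GC correction (with or without block), 0.046 with total-read scaling, and 0.11 and 0.064 in the corrected fit without replicate 1 and without replicate 2. ADAM15 turned to -0.017 with limma-voom, and ADAM17 to -0.0073 and -0.013 in the corrected fit without replicate 1 and without replicate 2. Omitting 1 library with group only moved TIMP1 from -0.72 to 0.38, TIMP3 from -0.091 to 0.14, MMP14 from -0.25 to 0.38, ADAM15 from -0.53 to 0.63, MMP15 from -0.61 to 0.36, MMP17 from -0.50 to 0.50, MMP9 from -0.75 to 0.22, ADAM9 from -0.13 to 0.53, ADAM11 from -0.49 to 0.37, ADAM17 from -0.19 to 0.30 and ADAM10 from -0.076 to 0.49. For list genes it moved FRMD8 from -0.90 to 0.070, PCOLCE from -0.67 to 0.052, ADAMTSL5 from -0.038 to 0.73, ADAMTSL4 from -0.18 to 0.66, MICA from -0.69 to 0.024 and ALCAM from -0.13 to 0.75. The cause was not tested. The number of expressed members ran from 14 to 21.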
